A study of Mus musculus with 16 samples.

Results

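The comparison of tamoxifen with control treatment in cortical neurons comprised 8 of the 16 RNA sequencing libraries of a study on switching on Tert in TERT-AD mice. Members were the libraries whose titles name cortical neurons, 4 from the control group and 4 from the tamoxifen group; the other 8 came from hippocampal neurons. Every library was total RNA from adult B6.129S6.SvEvTac mice of the TERT-AD line, which received tamoxifen or, as controls, vehicle. The alleles that make up this line, the promoter or Cre that responds to tamoxifen, the way the neurons were isolated, and the age, sex and number of animals behind a library were not given in the sources used here. Within each group, libraries 1 and 2 were close to repeats of each other, as were libraries 3 and 4, so their counts were added. Sample A is the sum of the first pair and sample B that of the second, which leaves n = 2 per group throughout.

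Tert is the reverse transcriptase subunit of telomerase, the enzyme that lengthens chromosome ends, and it is barely transcribed in adult neurons. Preparations of adult cortex hold, beside neurons, astrocytes, oligodendrocytes, microglia and vessel cells. Astrocytes clear glutamate and potassium from synapses, are coupled by gap junctions and line vessels with endfeet rich in the water channel Aqp4. In bulk RNA, fewer cells of a type cannot be told apart from less RNA per cell of that type.

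The 8 libraries held 33236178 to 57195203 counts in genes. Transcripts that define other cell types were present in all of them. On the authors' deposited RPKM scale, which corrects for length, the neuronal gene Snap25 stood at 28.3 to 95.5 and the myelin gene Mbp at 1201 to 3319. The astrocytic transporter Slc1a2 ranged from 189.5 to 258 RPKM, the microglial receptor P2ry12 from 12.5 to 17.1 and Cldn5 of endothelium from 34.0 to 59.0. Tamoxifen sample B stood apart from the other cortical samples. In its 2 libraries 20.1 and 20.69% of gene counts were mitochondrial, against 29.68 to 32.08% in the other 6, and Snap25 was at 94.9 and 95.5 RPKM against 28.3 to 31.8. Tamoxifen sample A held the most choroid plexus RNA, with Ttr at 5690 CPM (counts scaled to a common library size, here by the trimmed mean of M-values, TMM) against 1011 and 4.62 CPM in the controls and 2.79 CPM in sample B. Each result below is therefore given for samples A and B separately.

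Across all genes, edgeR detected no difference between treatments on the summed samples, where n = 2 per group can leave differences undetected. With edgeR's quasi-likelihood test, 0 of 18074 genes (0%) had an adjusted p under 0.05, and the lowest was 0.269. Before adjustment, 899 genes (4.97%) had a p under 0.05. DESeq2 called 8 of 26901 genes (0.0297%). Limma voom, run on the libraries with neighbours treated as correlated, called 15 of 16746 genes (0.0896%). When the libraries were counted as separate samples, edgeR called 208 of 16746 genes higher (1.24%) and 354 lower (2.11%), and 313 in all (1.87%) with the replicate number as a block. P-values of these library fits are too small if neighbours are repeats of 1 sample. A simpler measure, which is not a test, was whether all 4 tamoxifen libraries lay on 1 side of all 4 controls. As neighbours are near repeats, it comes close to comparing 2 samples with 2. Only 6 arrangements of 2 against 2 exist, so many genes can separate by chance. They lay above in 916 of 18074 genes (5.07%) and below in 1056 (5.84%).

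Tert itself was near the lower limit of measurement. The control samples A and B had 0.546 and 1.32 CPM, and the tamoxifen samples 1.26 and 2.05 CPM. Single libraries held 15 to 51 counts in the control group and 23 to 149 in the tamoxifen group, and the groups overlapped. The log2 fold change was 0.83 (SE 0.67, n = 2 per group, edgeR adjusted p = 0.834). Without control sample B it was 1.60, without control sample A 0.32 and without tamoxifen sample B 0.44. An exact two-sided permutation test gave p = 0.667 over summed samples, for which 0.333 is the smallest possible. Counting the 4 libraries of each group gave an exact permutation p = 0.143, which treats near repeats as separate samples. By replicate number, Tert was higher with tamoxifen in 4 of 4 pairs of libraries. The labels do not say that the numbers pair libraries, and near repeats make these fewer than 4 independent pairs. With a block the log2 fold change was 0.93 (SE 0.30, edgeR adjusted p = 0.907) over summed samples. Over libraries, with the number as a block, it was 0.86 (SE 0.21, edgeR adjusted p = 0.0572), again counting near repeats as separate samples. In hippocampus the same-numbered libraries went the other way. The hippocampal controls had 0.978, 1.57, 3.24 and 3.925 CPM, against 0.732, 1.125, 2.33 and 1.71 CPM with tamoxifen. The hippocampal log2 fold change of Tert was -0.72 (SE 0.65). Hippocampus minus cortex was -1.55 (SE 0.93, edgeR adjusted p = 0.912). Whether transcripts of a transgene would be counted under Tert (mm10, chromosome 13, 73627001 to 73649041) was not stated in the labels used here. Of 24 telomerase and telomere genes tested, 14 had a positive sign (median log2 fold change 0.02). Only Ctc1, of the telomere-capping CST complex, separated the groups, above the controls. Over all genes 5.07% lay above and 5.84% below.

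Astrocyte marker genes had lower levels in both tamoxifen samples. The list was chosen with earlier results of these data known, so its counts describe these samples and are not a test. All 31 tested members had a negative log2 fold change, with a median of -0.42 against 0.04 over all genes tested. In 27 of the 31, all 4 tamoxifen libraries lay below all 4 controls, where 5.84% of all genes did so. Relative to the mean of both controls, the median difference was -0.38 in tamoxifen sample A and -0.51 in sample B on the log2(CPM + 0.5) scale, while the controls differed from each other by 0.08. None of the 31 passed the edgeR test on summed samples. In that test 20 had an unadjusted p under 0.05, against 4.97% of all genes. Voom with correlated neighbours called 8 lower, where it called 0.0896% of all genes. The separate libraries called 23 lower, against 2.11% of all genes. With the block they called 20 lower, where 241 of 16746 genes were called lower.

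**Figure D1:**
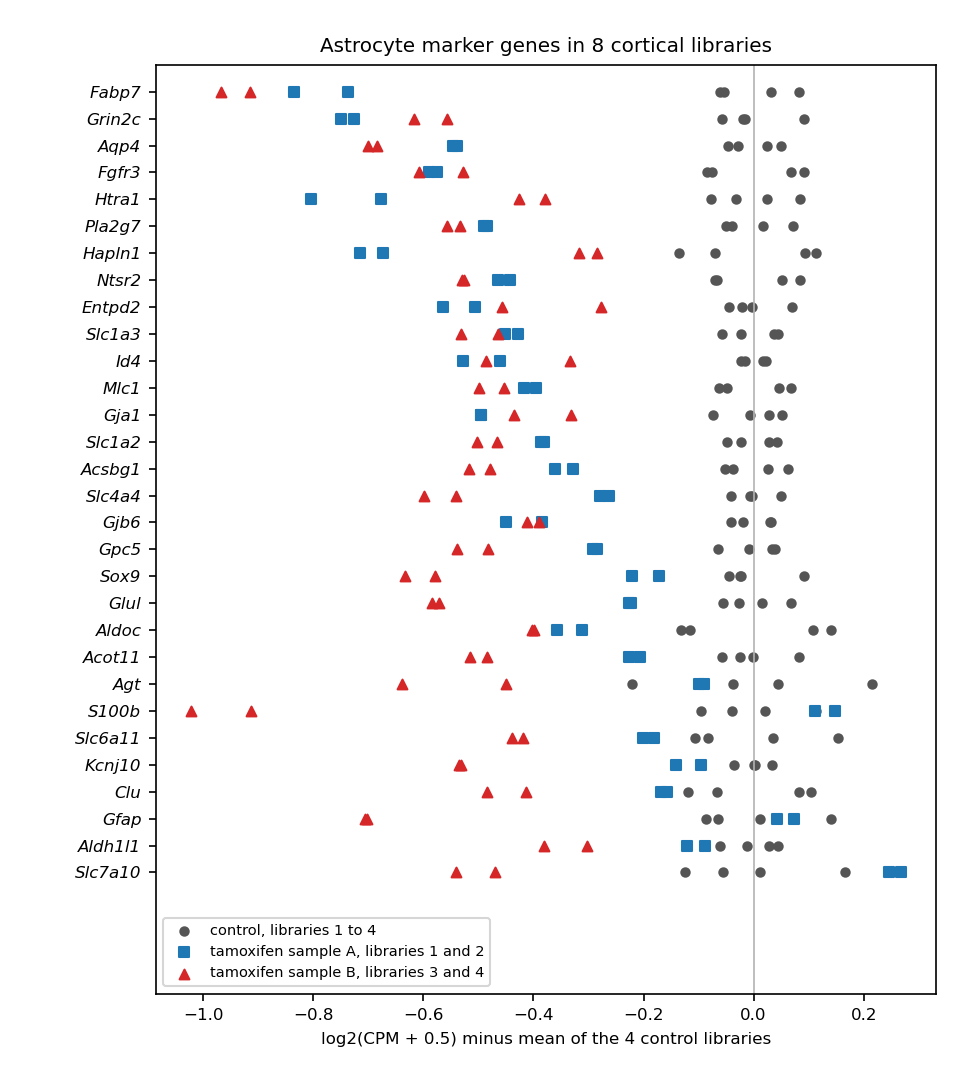
Astrocyte marker genes in the 8 cortical libraries. The horizontal axis is log2(CPM + 0.5) minus the mean of the 4 control libraries, and each row is 1 of 30 genes of the list, ordered by log2 fold change. Grey circles are controls, blue squares the libraries of tamoxifen sample A and red triangles those of sample B; in 26 rows every coloured point lies to the left of every grey one.

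The gene of largest fold change in the list was Fabp7 (mm10, chromosome 10, 57784881 to 57788450), the fatty acid-binding protein of radial glia and astrocytes. It had 21.6 and 22.04 CPM in control samples A and B, and 12.5 and 11.1 CPM with tamoxifen. The 4 tamoxifen libraries, at 10.9 to 12.9 CPM, did not overlap the 4 controls at 20.9 to 23.1 CPM. Its log2 fold change was -0.88 (SE 0.15, n = 2 per group, edgeR adjusted p = 0.83), -0.80 without tamoxifen sample B and -0.98 without sample A. It passed in voom (adjusted p = 0.0293) and was the one list member called by DESeq2.

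Of the transport and coupling genes on the list, 5 are given here. The glutamate transporter Slc1a2 had 6484 and 6824 CPM in the controls against 5106 and 4737 CPM with tamoxifen (log2 fold change -0.44, SE 0.19). The related transporter Slc1a3 had 741 and 785 CPM against 562 and 537 CPM (-0.47, SE 0.16). Both were below the controls in all 4 libraries. For the water channel Aqp4 the controls had 101.1 and 106.7 CPM and the tamoxifen samples 71.3 and 64.0 CPM (-0.62, SE 0.15). The gap junction genes Gja1 (-0.44, SE 0.13) and Gjb6 (-0.42, SE 0.11) differed by about as much in sample A as in sample B. Gja1 had 184 and 188 CPM in the controls against 132 and 142 CPM, and Gjb6 63.9 and 66.9 CPM against 48.7 and 49.3 CPM.

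Of the receptor genes on the list, 3 that voom called are given here. The NMDA receptor subunit Grin2c, which is enriched in astrocytes of the forebrain, had 106 and 112 CPM in the controls and 64.9 and 72.2 CPM with tamoxifen (-0.66, SE 0.15). The fibroblast growth factor receptor Fgfr3 had 189.9 and 213 CPM against 134 and 136 CPM (-0.58, SE 0.14). Ntsr2, a neurotensin receptor, had 154 and 170.0 CPM against 119 and 112 CPM (-0.49, SE 0.14). The 8 members that voom called included these 3, Aqp4, Slc1a2, the protease Htra1 (-0.56, SE 0.15) and Fabp7. In each of these 7 genes the fold change remained negative without either tamoxifen sample. All 7 lay below the controls in all libraries, so this sign was fixed in advance and is not a check.

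The 4 members whose libraries overlapped were Gfap, S100b, Slc7a10 and Agt, and there the tamoxifen samples differed from each other. The intermediate filament gene Gfap had 256 and 285 CPM in the controls, 281 CPM in tamoxifen sample A and 165 CPM in tamoxifen sample B (log2 fold change -0.28, SE 0.25). S100b had 490.0 and 538 CPM in the controls, 561 CPM in A and 260.4 CPM in B with tamoxifen (-0.32, SE 0.34). Slc7a10, a serine transporter, had 33.5 and 29.5 CPM in the controls, 37.7 CPM in A and 21.99 CPM in B with tamoxifen. Sample A thus stood within or above the controls for these genes, while sample B stood below. Of 23 reactive astrocyte genes, 7 had a positive sign (median -0.14). In all libraries 0 lay below the controls and 2 above, beside 5.84 and 5.07% of all genes. Their median difference was 0.04 in sample A and -0.22 in sample B. With plain totals the latter became 0.08, or -0.24 relative to the median of all genes.

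The size of the astrocyte difference in sample B depended on the scaling. TMM factors were 0.839 to 0.866 in the controls, 0.826 in tamoxifen sample A and 1.14 in sample B. Scaling by the plain total of gene counts, added after seeing the data, moved the median log2 fold change of all genes up by 0.21. The astrocyte median was then -0.23 with 30 of 31 negative and 16 below the controls in all libraries. The share of all genes below was not counted under this scaling. In sample A it was -0.43, and -0.40 relative to the median gene. In sample B it was -0.09, and -0.42 relative to the median gene. The authors' RPKM, which is scaled to the total, likewise put Slc1a2 at 189.5 and 190.0 in the libraries of sample A and 257 and 258 in those of sample B, against 248 to 252 in the controls. With plain totals of the nuclear genes alone, 31 of 31 were negative, with medians of -0.45 in sample A and -0.30 in sample B. Of the 31, 26 were below in all libraries, again without a count over all genes.

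The promoters of 3 voom-called genes, Fabp7, Grin2c and Fgfr3, are shown because the genes stood lower together. Each run is the 250 bases before the start site, on the gene's own strand, from RefSeq on GRCm38.p6. The positions are chr10:57784673-57784922 (plus strand) for Fabp7, chr11:115267244-115267493 (minus strand) for Grin2c and chr5:33721474-33721723 (plus strand) for Fgfr3. Capitals mark a match to TGGGAA on either strand, the core that RBPJ, the DNA-binding factor of Notch signalling, recognises.
Fabp7: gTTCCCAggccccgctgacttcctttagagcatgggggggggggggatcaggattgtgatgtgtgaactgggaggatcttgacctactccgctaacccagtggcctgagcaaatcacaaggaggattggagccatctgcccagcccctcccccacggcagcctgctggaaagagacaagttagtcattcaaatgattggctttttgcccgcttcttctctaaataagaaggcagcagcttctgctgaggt
Grin2c: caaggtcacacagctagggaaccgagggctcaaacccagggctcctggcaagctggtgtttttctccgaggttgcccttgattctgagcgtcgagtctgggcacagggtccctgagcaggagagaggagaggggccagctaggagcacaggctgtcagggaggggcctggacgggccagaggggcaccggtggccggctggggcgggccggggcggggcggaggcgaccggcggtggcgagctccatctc
Fgfr3: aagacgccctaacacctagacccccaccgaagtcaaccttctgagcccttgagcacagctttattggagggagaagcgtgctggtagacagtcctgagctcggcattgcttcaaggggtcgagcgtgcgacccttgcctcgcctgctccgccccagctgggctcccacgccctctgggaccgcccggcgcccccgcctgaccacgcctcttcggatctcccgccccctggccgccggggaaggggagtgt
The letters TGGGAA occurred in 10 of the 27 astrocyte members with a promoter in the table, Fabp7 among them, and in 20.9% of 12102 promoters. The motif TTGGCA, part of the site of NFI factors, was in 2 of 27 (10.2% of all), the SOX core CTTTGT in 1 (12.5%) and the AP-1 site TGANTCA in 2 (4.46%). The GLI core GGGTGGTC was in 0 of 27 (0.76% of all), and the E-box CACGTG in 1 (7.97%). Both strands were searched, and a match is a run of letters and not a binding site.

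Among hedgehog and Notch pathway genes, Gli2 and Gli3 had lower levels in both tamoxifen samples. Gli2 (mm10, chromosome 1, 118834132 to 119053619), a transcription factor activated by hedgehog, had 7.49 and 8.34 CPM in the controls and 4.13 and 3.92 CPM with tamoxifen (log2 fold change -0.98, SE 0.20). Gli3, which acts mainly as a repressor of the pathway, had 22.2 and 20.6 CPM against 14.3 and 15.4 CPM (-0.53, SE 0.12). Neither overlapped between groups in any library, and neither passed (edgeR adjusted p = 0.83 for both). The ligand gene Shh was above the controls at 0.33 and 0.77 CPM against 0.13 and 0.23 CPM (1.64, SE 0.63). In each sample this was below the level of Tert and so near the lower limit of measurement. Of 35 hedgehog and Notch genes tested, 24 were negative (median -0.15), 7 lay below the controls in all libraries (5.84% of all genes did) and 1, Shh, above (5.07% of all genes). The Notch modifier Lfng had 21.2 and 26.4 CPM against 18.03 and 16.5 CPM (-0.46, SE 0.19). The median of the hedgehog and Notch list was 0.02 in sample A and -0.46 in sample B. With plain totals it was -0.05 in sample B, and -0.38 relative to the median gene.

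Of 28 neurotrophin and growth factor genes, 7 lay below the controls in all libraries, against 5.84% of all genes, and 1, the neuregulin Nrg3, above, against 5.07%. Beside Fgfr3, those below included the GDNF co-receptor Gfra1, at 48.7 and 47.2 CPM in the controls against 35.0 and 38.3 CPM (-0.39, SE 0.12). The epidermal growth factor receptor Egfr had 14.8 and 13.4 CPM against 10.9 and 9.38 CPM (-0.48, SE 0.16), and Fgfr1 56.0 and 56.2 CPM against 48.5 and 42.0 CPM (-0.31, SE 0.12). Hbegf, a ligand of Egfr, had 21.9 and 23.2 CPM against 16.6 and 14.3 CPM (-0.55, SE 0.13). The list median was -0.12 in sample A and -0.19 in sample B. With plain totals it was 0.18 in sample B, and -0.15 relative to the median gene.

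Genes of redox balance, metal binding and lipid supply gave further members below the controls. The cystine-glutamate exchanger Slc7a11 had 55.9 and 50.7 CPM in the controls and 38.6 and 36.5 CPM with tamoxifen (-0.51, SE 0.12). The peroxiredoxin Prdx6 had 305 and 365 CPM against 241 and 256 CPM (-0.43, SE 0.14). Of 32 antioxidant and mitochondrial biogenesis genes these and Sod1, Prdx1, Gclm and Nrf1 lay below in all libraries, and Prdx5 above. Of all genes, 5.84% lay below and 5.07% above. The list as a whole had 15 positive and 17 negative members and a median of -0.01. By sample the median was -0.002 in A and -0.06 in B. With plain totals it was 0.35 in B, and 0.02 relative to the median gene. The metallothioneins Mt1 (309 and 347 CPM against 263 and 253 CPM) and Mt2 (119 and 125 CPM against 94.4 and 97.7 CPM), which bind zinc, were also below. The fatty acid elongase Elovl2 was lower by the same measure in all libraries (-0.65, SE 0.15). Sox2 and Dio2 were chosen after their values were seen, because voom called them. The stem cell and glial factor Sox2 had 76.8 and 80.1 CPM against 57.0 and 55.8 CPM, and the deiodinase Dio2, which activates thyroid hormone, 173 and 185 CPM against 125 and 103 CPM.

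Of 35 members of the matrix list, 6 lay below the controls in all libraries and 3 above, beside 5.84 and 5.07% of all genes. The proteoglycan Bcan had 342 and 339 CPM in the controls against 236 and 247 CPM (-0.50, SE 0.16). The link protein Hapln1 had 14.6 and 12.7 CPM against 8.20 and 10.9 CPM (-0.51, SE 0.17). The membrane protease Mmp14 had 17.8 and 19.0 CPM against 13.5 and 10.2 CPM (-0.63, SE 0.15). Matn2 (mm10, chromosome 15, 34306680 to 34436242), a matrilin that links matrix fibres, went the other way with 3.92 and 3.47 CPM against 9.999 and 9.42 CPM. Its log2 fold change was 1.39 (SE 0.34, edgeR adjusted p = 0.83), 1.43 without tamoxifen sample B and 1.35 without sample A. The other members above were the protease inhibitor Timp2 (0.43, SE 0.18) and the laminin Lama1.

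**Figure D2:**
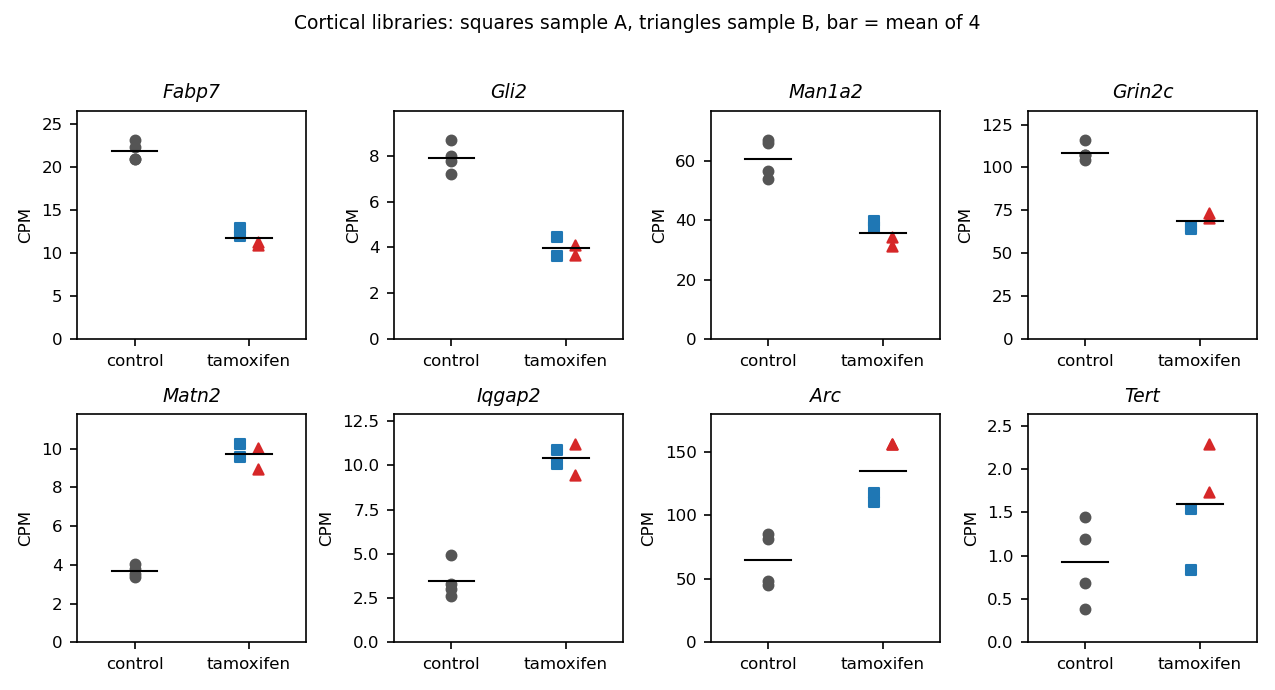
CPM in the 8 cortical libraries for 8 genes, with a linear vertical axis from 0. Grey circles are control libraries, blue squares tamoxifen sample A, red triangles tamoxifen sample B, and the bar is the mean of 4 libraries. Fabp7, Gli2, Man1a2 and Grin2c lie below the controls in both samples, Matn2, Iqgap2 and Arc above, and Tert overlaps.

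Of the named genes above the controls, Matn2, Iqgap2, Lmln and Sfmbt1 stood higher by a similar amount in both tamoxifen samples. The cytoskeletal scaffold Iqgap2 had 4.05 and 2.99 CPM in the controls and 10.4 and 10.2 CPM with tamoxifen (1.55, SE 0.46). The activity-induced gene Arc had 46.7 and 83.5 CPM in the controls, which differed from each other, and 115 and 156 CPM with tamoxifen (1.06, SE 0.32). Of the 27 immediate early genes, Arc and Nr4a1 lay above in all libraries, Btg2 lay below, and the list median was -0.05. These counts are near the 5.07 and 5.84% of all genes that lay above and below. For most other named genes above the controls, sample B was further away than sample A. The receptor kinase Kit had 3.96 and 3.17 CPM in the controls, 5.25 CPM in A and 8.37 CPM in B with tamoxifen (0.93, SE 0.24, and 0.55 without sample B). The vesicle protein Sv2b had 35.2 and 39.8 CPM in the controls and 43.5 CPM in sample A, but 153 CPM in sample B (1.39, SE 0.50, and 0.21 without sample B). The sodium pump subunit Atp1b1 had 121 and 116 CPM, 181 CPM and 328 CPM in the same order (1.10, SE 0.36, and 0.61 without sample B). Cntn4, Nov and Slc24a2 had log2 fold changes of 1.16 to 1.24, which were 0.30 to 0.38 without sample B. Lmln differed from the controls by 0.60 in sample A and 0.42 in sample B, and Sfmbt1 by 0.32 and 0.40, on the log2(CPM + 0.5) scale. Tmem132a, Nipal3, Tenm2, Rnf150, Rasl11b, Trpc1 and Lclat1 had log2 fold changes of 0.57 to 0.80, which were 0.37 to 0.54 without sample B.

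Outside the lists above, the named genes below the controls included Slc9a3r1, a scaffold that anchors membrane transporters. It had 96.9 and 102 CPM in the controls and 66.0 and 67.0 CPM with tamoxifen (-0.58, SE 0.12; voom adjusted p = 0.0173). The Golgi mannosidase Man1a2 had 55.2 and 66.5 CPM against 39.0 and 32.6 CPM (-0.77, SE 0.16; voom adjusted p = 0.0173). The exchange factor Arhgef19 (-0.54, SE 0.13), the sphingomyelinase Smpd2 (-0.58, SE 0.14) and the R-spondin receptor Lgr4 (-0.48, SE 0.11) also lay below in all libraries. Edn1, Tbx3, Hsd11b1 and Col11a2 had log2 fold changes of -0.98 to -0.69. Of these, Col11a2 differed from the controls by -0.63 in sample A and -0.68 in sample B on the log2(CPM + 0.5) scale, but the other 3 were further down in sample B. Without sample B the fold change was -0.51 for Edn1, -0.60 for Tbx3 and -0.54 for Hsd11b1. Edn1, the vasoconstrictor endothelin, stood at 10.6 and 10.2 CPM in the controls, 7.35 CPM in A and 3.23 CPM in B with tamoxifen.

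Neuronal lists had positive medians that came from sample B. Of 20 pan-neuronal markers, 16 were positive (median 0.50), yet the median difference was -0.10 in sample A and 0.97 in sample B. In all libraries 1 member, Nsg2, lay above the controls and 1 below, near the 5.07 and 5.84% of all genes. Excitatory neuron markers gave -0.08 and 0.83, inhibitory markers -0.14 and 0.66, and presynaptic genes -0.05 and 0.60. Among excitatory markers, Tbr1 of deep layers had 48.3 and 62.7 CPM in the controls, 55.7 CPM in A and 123 CPM in B with tamoxifen. Voltage-gated ion channels (32 of 35 positive, median 0.40) held 5 members above in all libraries, where 5.07% of all genes were. They were the calcium channels Cacna1e (0.68, SE 0.25), Cacna1c (0.41, SE 0.15) and Cacna1g (0.51, SE 0.20), the sodium channel subunit Scn3b and the potassium channel Kcnh1. Cacna1c had 12.9 and 12.4 CPM in the controls, 15.3 CPM in A and 18.4 CPM in B with tamoxifen. The glutamate receptor Grm3, which astrocytes also carry, went the other way, at 80.8 and 79.6 CPM against 60.3 and 66.4 CPM (-0.34, SE 0.11).

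**Figure D3:**
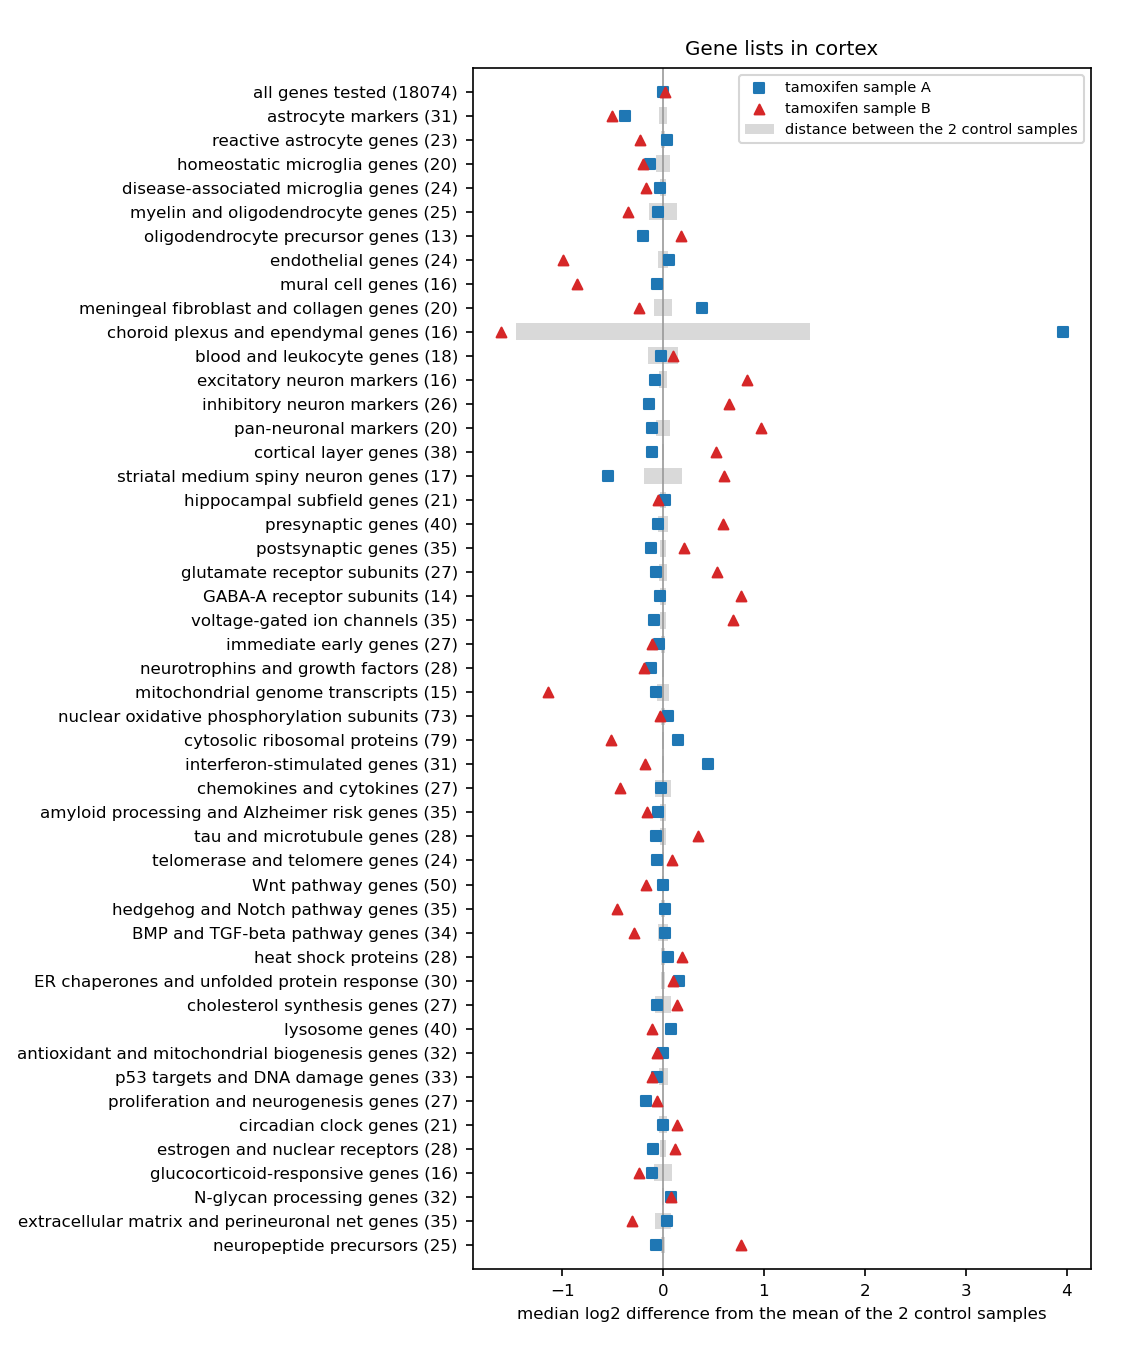
Median log2 difference of 48 gene lists, and of all genes tested, from the mean of the 2 control samples. Blue squares are tamoxifen sample A, red triangles tamoxifen sample B, and the grey bar spans the distance between the 2 controls; the number of genes tested stands in brackets. Astrocyte markers are at -0.38 and -0.51, while most lists have a median near 0 in sample A.

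Vessel and organelle lists also differed mainly in sample B. All 24 endothelial genes were lower there, with a median of -0.99, against 0.06 in sample A. Cldn5, a tight junction protein, had 164 and 146 CPM in the controls, 153 CPM in A and 69.3 CPM in B with tamoxifen. An exception was the lipid carrier Mfsd2a, below in all libraries at 25.0 and 25.4 CPM against 19.4 and 16.6 CPM (-0.48, SE 0.12). Of 16 mural cell genes, 5 lay below in all libraries, against 5.84% of all genes (Rgs5, Ndufa4l2, Pdgfrb, Vtn and Atp13a5). Rgs5 of pericytes had 159.8 and 167.0 CPM in the controls, 132 CPM in A and 91.6 CPM in B with tamoxifen. Their medians were -0.06 in sample A and -0.85 in sample B. Mitochondrial genome transcripts gave -0.07 and -1.14, and cytosolic ribosomal protein genes 0.14 and -0.52. With plain totals the sample B medians were -0.58 for endothelial genes, -0.45 for mural cell genes, -0.72 for mitochondrial transcripts and -0.10 for ribosomal protein genes. Relative to the median gene they were -0.90, -0.77, -1.05 and -0.43 in the same order. Interferon-stimulated genes stood apart in sample A instead, where all 31 were higher with a median of 0.45. In sample B their median was -0.18, or 0.16 with plain totals, which was -0.16 relative to the median gene. The interferon regulator Irf7 had 2.53 and 3.10 CPM in the controls, 7.17 CPM in A and 3.53 CPM in B with tamoxifen.

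Of the 48 lists, 14 had a lower median than the controls in both tamoxifen samples, 4 a higher one in both, and 30 lay on opposite sides. This balance depended on the scaling: with plain totals 5 lists were lower in both, 9 higher in both and 34 on opposite sides. With plain totals the median of all genes was itself -0.03 in sample A and 0.33 in sample B. With TMM scaling, ranked by the smaller of the 2 differences, astrocyte markers came first at 0.38, followed by homeostatic microglia genes at 0.13. With plain totals astrocyte markers stood at 0.09, behind 4 other lists. Interferon-stimulated genes, then higher than the controls in both samples, came first at 0.16. Both values are from sample B. Relative to the median gene there, interferon-stimulated genes stood at -0.16 and astrocyte markers at -0.42. With plain totals of the nuclear genes alone astrocyte markers came first again, at 0.30. All 20 homeostatic microglia genes had a negative sign (median -0.15), and 7 lay below in all libraries (5.84% of all genes). In sample B their median was -0.20, but 0.21 with plain totals, which was -0.11 relative to the median gene. The engulfment receptor Mertk had 75.6 and 98.0 CPM in the controls against 65.3 and 61.2 CPM (-0.46, SE 0.25), and Tmem119 had 69.8 and 71.5 CPM against 57.4 and 65.2 CPM. Chaperones and unfolded protein response genes of the endoplasmic reticulum were higher in both samples under all 3 scalings. Their medians were 0.16 in A and 0.09 in B with TMM and 0.11 and 0.51 with plain totals. Relative to the median gene the plain-total medians were 0.14 in A and 0.19 in B. Of these 30 genes, 8 lay above in all libraries (5.07% of all genes did) and 3 below (5.84% of all genes). The chaperone Hyou1 had 31.9 and 29.1 CPM in the controls against 36.7 and 41.5 CPM (0.36, SE 0.15), and the disulfide isomerase Pdia6 32.4 and 28.3 CPM against 38.2 and 39.4 CPM (0.36, SE 0.16). Herpud1, which helps to clear misfolded proteins, had 17.95 and 17.94 CPM against 22.7 and 20.7 CPM. The 3 below were the stress factors Ddit3 and Atf4 and the degradation factor Edem1.

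**Figure D4:**
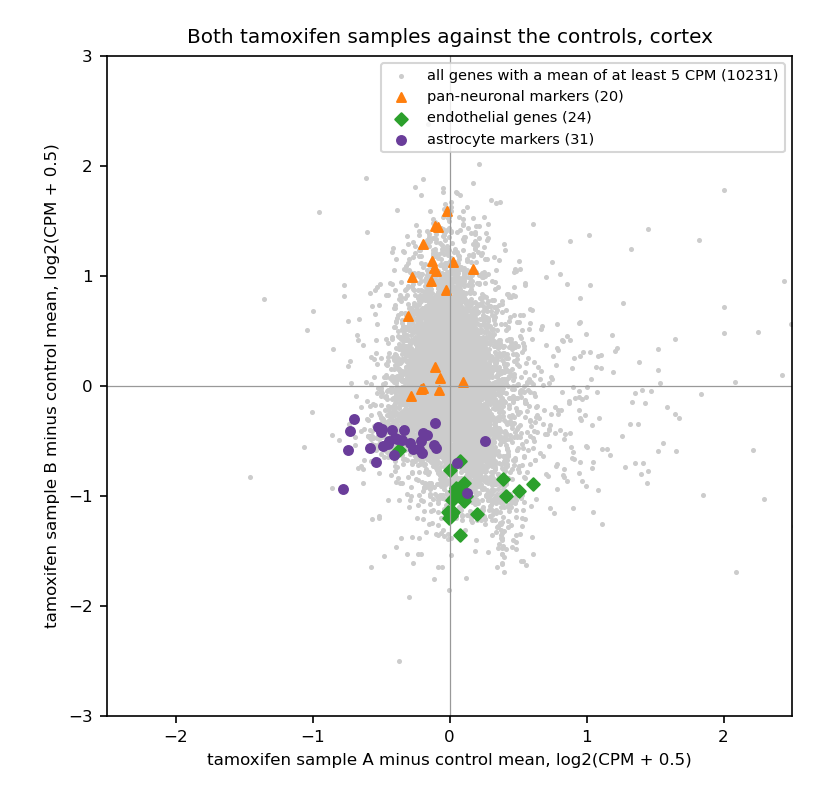
Difference of each tamoxifen sample from the control mean, log2(CPM + 0.5), with sample A on the horizontal and sample B on the vertical axis, for 10231 genes with a mean of at least 5 CPM; 42 lie outside the axes. Astrocyte markers (purple) are lower on both axes for 28 of 31 genes, pan-neuronal markers (orange) spread upwards in sample B, and endothelial genes (green) downwards in sample B.

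In the hippocampus of the same line the astrocyte genes did not show this pattern. The same 31 genes had a median log2 fold change of 0.22 there, against -0.42 in cortex. The difference of the 2 effects, hippocampus minus cortex, was positive for 30 of 31 (median 0.71), beside -0.04 over all genes. Examples were Gja1 (0.80, SE 0.18), Fgfr3 (0.79, SE 0.19) and Aqp4 (0.71, SE 0.21). Gli3 (1.07, SE 0.17) and Matn2 (-2.29, SE 0.48) had opposite fold changes in the 2 regions, with 0.54 and -0.90 in hippocampus. Man1a2 was lower in both, with -0.88 (SE 0.16) in hippocampus. For this difference edgeR called 0 of 18074 genes (0%), while 981 (5.43%) had a p under 0.05 before adjustment. Among the 31 astrocyte genes the lowest adjusted p was 0.889.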

How the data were processed

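Total RNA of 8 cortical libraries was compared, 4 per treatment, and 8 hippocampal libraries entered the same fits so that all groups shared 1 estimate of the spread. The submitters' processing notes name STAR, HTSeq and the build mm10. No version, annotation release or strand setting was given in the sources used here, so overlapping genes may share reads. The deposited counts are whole numbers of reads per gene for 39179 genes, not normalized; rows for reads outside genes (5.48 to 7.93% of all counts) or mapped to several places (27.53 to 35.43%) were left out. The RPKM the authors deposited equals count divided by exon length and by each file's total, and entered no test.

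Within the 4 cortical pairs of neighbouring libraries the SD of log2 ratios was 0.082 to 0.105, against 0.196 to 0.679 in the 8 other pairs of the same group. Neighbours differed by more than sampling noise but were far more alike, so they were summed to 83527470 to 99767250 counts per cortical sample. The labels do not say whether they share an animal, and p-values reflect only the spread between such sums, which may be technical. Filtering with filterByExpr left 18074 genes, fitted with 1 mean per group and TMM scaling in edgeR 4.0.16 (R 4.3.3, robust quasi-likelihood test, Benjamini-Hochberg adjustment over all genes, threshold 0.05). SE is |log2 fold change| over the root of F, and differences per sample use log2(CPM + 0.5). Alternatives used DESeq2 1.42.0, limma 3.58.1 (voom, correlation 0.736 between neighbours), other scalings and filters, and leaving out samples or libraries. As a check of pairing, deviations of same-numbered control and tamoxifen libraries correlated at 0.376 to 0.404 over 9996 genes. Libraries of other number within the same summed sample correlated as much, at 0.383 to 0.423, and those of the other summed sample at -0.421 to -0.373. The likeness across treatments thus did not follow the single number. Because deviations were taken from each group's mean and neighbours are near repeats, the positive and negative ranges mirror each other. They amount to about 1 value, a correlation of 0.474 between the A minus B differences of the 2 treatments. With 2 samples per group that value cannot show that A pairs with A. A replicate block was also fitted: it called 0 genes over summed samples and 313 over libraries. On simulated data the test recovered 31% of 100 genes changed 2-fold and 99% of 100 changed 8-fold among 17871 genes, with 2 false calls.

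The 48 gene lists (1418 entries, 1379 tested), the alternatives and the genes named were chosen with earlier results of these data known. Named were Tert and, in each direction, the 12 genes of smallest p and the 8 of largest change past the test on separate libraries, all at 5 CPM or more on average and without overlap of libraries, leaving out predicted, mitochondrial, pseudogene and sex-linked entries. From each list, members among the 4 of smallest p and cell type markers could be named; others complete a count and were chosen after their values were seen. A few genes of the lists entered every count and are not reported here by name.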

Additional observations from a re-analysis of the deposited data

Results flagged for a closer look

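All 48 lists were screened, and mean levels of 3 stood on opposite sides of the controls in the 2 regions in every sample. With 2 samples per group some of 48 lists can meet this rule by chance, and that rate was not computed. The difference between regions was not tested for a list as a whole. Astrocyte markers (31 genes) had a mean log2(CPM + 0.5) of 7.502 and 7.575 in the cortical controls against 7.195 and 7.007 with tamoxifen, a difference of -0.44. In hippocampus they had 7.55 and 7.54 against 7.85 and 7.66, a difference of 0.21, so that the regions differed by 0.65.

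Endoplasmic reticulum chaperones and unfolded protein response genes (30 genes) stood at 4.63 and 4.57 in the cortical controls and 4.77 and 4.66 with tamoxifen, a difference of 0.11. The hippocampal values were 5.17 and 5.14 against 4.76 and 4.99, a difference of -0.28, and the regions differed by -0.40. N-glycan processing genes (32 genes) stood at 4.36 and 4.33 against 4.44 and 4.42 in cortex (0.09), and at 4.82 and 4.81 against 4.53 and 4.63 in hippocampus (-0.23), a difference of -0.32 between regions.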

How the results depend on the processing

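No gene passed on summed samples under RLE, upper quartile or plain-total scaling, with mitochondrial genes left out of the scaling, with cortical samples alone or with the replicate block. The count of genes called in cortex was 562 with 16 separate libraries, 313 with the replicate block over libraries, 15 with voom, 8 with DESeq2 and 1 without a count filter (Msx3). Leaving out 1 sample or library gave 0 to 2014: 2014 without tamoxifen sample A, 1 without tamoxifen sample B and 0 in the other 10 cases. For the difference between regions the counts were 867 with separate libraries, 544 with the replicate block over libraries, 112 with voom and 3 with DESeq2. The astrocyte median was -0.23 with plain totals and -0.52 to -0.38 in the leave-outs. Plain totals left 16 members below the controls in all libraries, without a count over all genes under that scaling. The median was -0.52 without tamoxifen sample A and -0.38 without sample B. For both the counts and the medians the cause was not tested. The 35 single genes kept their sign in all 24 alternatives. All but Tert were chosen for not overlapping between groups, and some also for passing the test on separate libraries. Their sign was therefore largely fixed by the choice, and its constancy is not a check. With 2 samples per group, 31% of simulated 2-fold changes were recovered, so differences of this size can be missed.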
